A study of Mus musculus with 9 samples.

Results

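The potassium, sodium and chloride channel genes described here are the 68 protein-coding genes whose symbol begins with Kcn, with Scn and a digit, or with Clcn, and whose summed estimated read count reached 10 in at least 3 of the 9 libraries. They were drawn from 117 protein-coding genes with such symbols, and the whole series holds 14282 protein-coding genes that pass the same count rule. The libraries were made from polyA RNA of mouse embryonic fibroblasts (MEFs) that carry Dmdmdx, a premature stop in the dystrophin gene used as a model of Duchenne muscular dystrophy, so the controls carry it too. One group of 3 libraries had no treatment (MEF), one of 3 had ectopic MyoD, the transcription factor that turns fibroblasts towards skeletal muscle (MyoD), and one of 3 had MyoD together with a small-molecule treatment (MyoD F/R/C). The labels do not spell out the letters F, R and C, nor how MyoD was delivered or for how long the cells were treated. Nor do they tell whether replicates are separate cultures or embryos, and p-values therefore rest only on the spread among these libraries, part of which may be technical.

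Voltage-gated sodium channels open when the membrane depolarises and start the action potential, and voltage-gated potassium channels close it by letting potassium out. Inward rectifiers and two-pore-domain channels hold the resting potential, and in adult skeletal muscle the chloride channel Clcn1 carries most of the resting conductance. Pore subunits work with auxiliary subunits that change gating or traffic, such as the sodium channel beta subunits, and intracellular members of the Clcn family exchange chloride for protons in endosomes and lysosomes.

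The count rule is the only measurement that chose the members. Of the 68, 26 had at least 10 counts in every library, and 56 would have passed on the MEF and MyoD libraries alone. The other 12 needed the MyoD F/R/C libraries. Of those, 4 (Kcnj12, Kcna7 and Kcnq1 among them) reached 10 counts in no MEF or MyoD library, and 8 (Clcn1, Kcna3, Kcnip2, Kcnj11, Kcnk13, Kcnu1, Scn7a and Scn8a) in 1 or 2 of them. Such genes tend to be higher in MyoD F/R/C by the way they were admitted, so counts over all 68 are given as a description. Just inside the threshold, the third-highest library held 12 counts for Kcnd3, Kcnip4 and Kcns1 and 13 for Kcna2 and Kcnt2. Just outside it, that library held 9 counts for Kcng1 and Kcnh7, 8 for Kcnh3 and 7 for Kcnq3. Of the 49 genes that did not pass, 6 (Kcnh8, Kcnj13, Kcnk16, Kcnk18, Kcnv1 and Kcnv2) had no count in any library. Kcnn2 and Kcne3, both known from muscle, did not exceed 7 and 3 counts in a library. A minimum of 5 counts gave 79 members and a minimum of 20 gave 57.

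Library totals lay between 21112071 and 24291056 estimated counts, and the floor set by a count of 0 (3 counts) was worth 0.113 to 0.144 CPM, reads scaled to the same effective library size. Such limits, and the intervals given below, cover counting error only. Channel members with at least 10 counts numbered 35, 49 and 56 in MEF replicates 1, 2 and 3, 47, 56 and 56 in MyoD, and 59, 60 and 60 in MyoD F/R/C. Summed CPM of 10 skeletal muscle markers was 6.88, 5.19 and 466 in MEF replicates 1 to 3, 777 to 2462 in MyoD and 28610 to 38310 in MyoD F/R/C, so MEF replicate 3, labelled untreated, stood apart from the other untreated libraries. The 10 fibroblast markers summed to 18520 to 81980 CPM in MEF and 5451 to 8282 in MyoD F/R/C. The 10 heart markers summed to 5.21 to 76.8 CPM in MEF, 96.2 to 304 in MyoD and 2832 to 5784 in MyoD F/R/C, most of it Myl4, and 4 of 7 tested were called higher in MyoD F/R/C than in MEF. Nppa, Myl7 and Nkx2-5 of that list were at 0 counts in every MEF and MyoD library and under 1 CPM in MyoD F/R/C. Gja5, Myh6 and Nppb had means of 194, 4.32 and 4.26 CPM in MyoD F/R/C, against 2.13, 0.0615 and 0.0998 in MEF. Tbx5 and Ryr2 had lower means in MyoD F/R/C, 1.61 and 0.145 CPM against 10.05 and 0.394 in MEF. The 10 smooth muscle and pericyte markers summed to 1246 to 2216 CPM in MEF, 902 to 2323 in MyoD and 4067 to 7222 in MyoD F/R/C. Against MEF, 1 of 10 was called higher and 2 lower. Most of the MyoD F/R/C sum was Des, at 3541, 3457 and 5755 CPM against 0.93, 0.644 and 50.7 in MEF. Of the others, Myh11, Lmod1 and Notch3 had higher means in MyoD F/R/C than in MEF. Cnn1, Smtn, Acta2, Tagln, Rgs5 and Cspg4 had lower means. The part of these cell types in the channel results was not tested. In these bulk libraries, fewer cells of a type and less RNA per cell cannot be told apart.

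Against MEF, 27 of the 68 channel genes were higher in MyoD F/R/C and 10 were lower (edgeR quasi-likelihood test, Benjamini-Hochberg adjusted p under 0.05 over all 15714 genes tested), and 31 did not pass. Of all genes tested, 19.5% were called higher and 18.1% lower. The median log2 fold change was 0.70 over the channel genes and -0.04 over all genes. Among the 56 genes admitted without the MyoD F/R/C libraries, 17 were higher and 10 lower. The genes called higher had log2 fold changes from 1.61 to 8.68, and 14 of them changed by at least 5. The genes called lower lay between -4.79 and -0.89. With the replicate number as a block, 30 were higher and 11 lower, beside 22.5% and 21.3% of all genes. The calls were spread over the roles: 5 of 7 sodium pore subunits, 9 of 23 voltage-gated potassium pore subunits and 4 of 8 chloride genes rose, while 4 voltage-gated potassium pore subunits and 2 chloride genes fell.

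**Figure D1:**
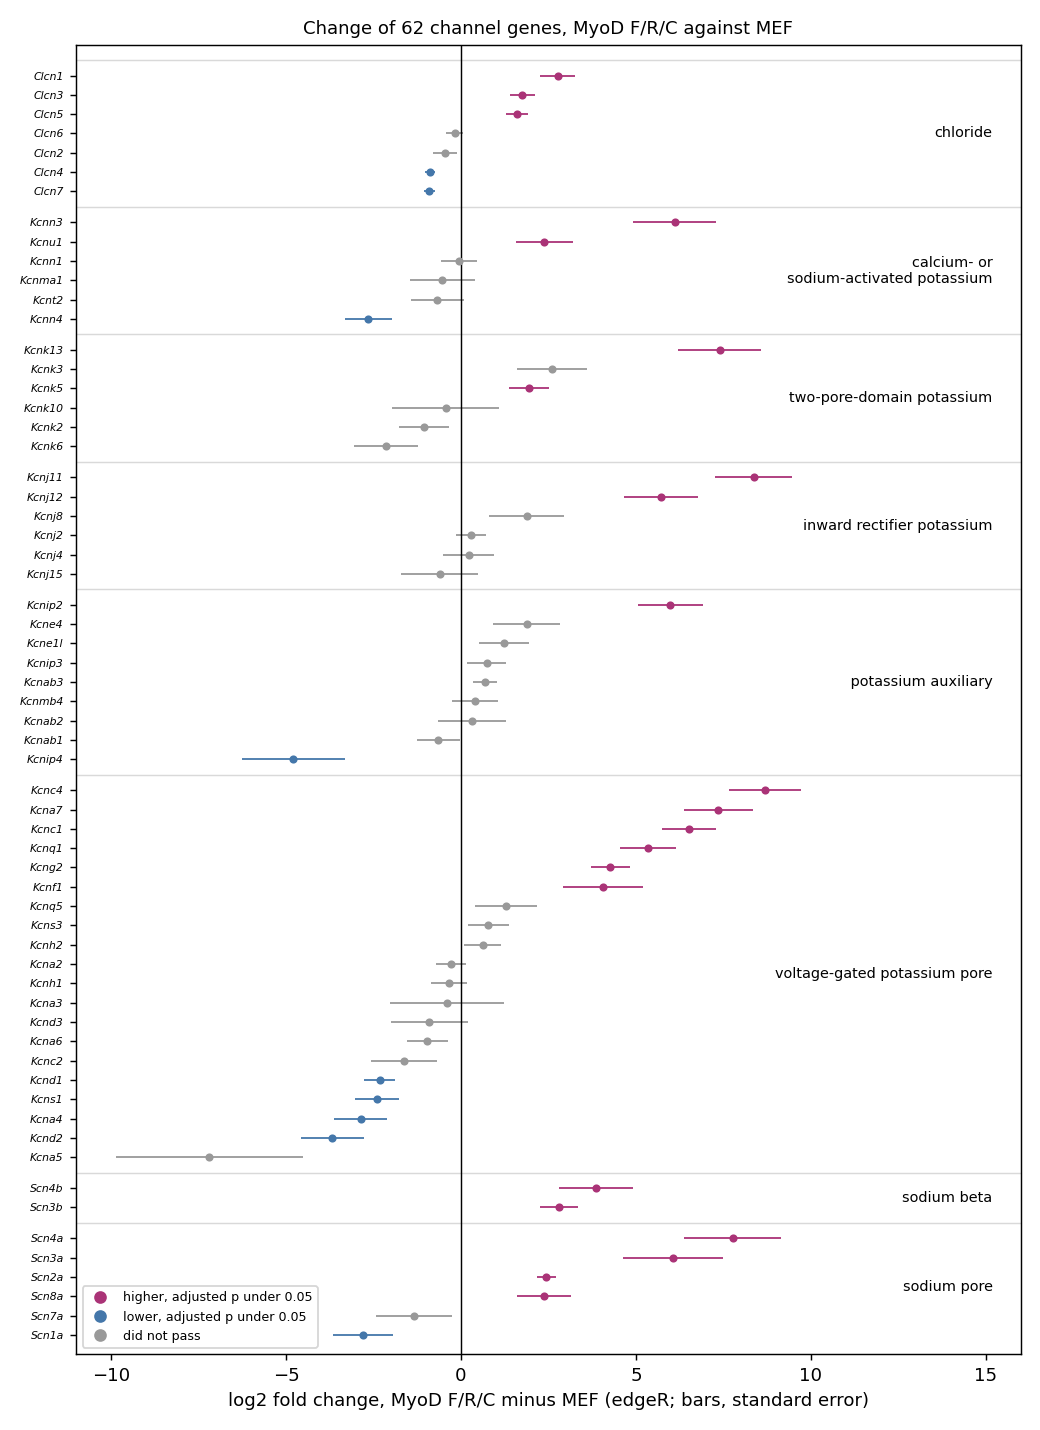
Log2 fold change of 62 of the 68 channel genes in MyoD F/R/C against MEF (x axis), with the standard error as a bar, grouped by role (y axis). Purple points were called higher (22), blue points lower (9) and grey points did not pass; Kcnc4 lies at the top of the rises at 8.68 and Kcnip4 at the bottom of the called falls at -4.79. Fitted values of genes with 3 or fewer counts in all of a group (Kcna7 and Kcnj11 in MEF, Kcna5 in MyoD F/R/C) depend on the prior count.

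Scn4a, the main sodium channel pore of adult skeletal muscle, was the most abundant channel gene in MyoD F/R/C at 72 ± 30.4 TPM (n = 3). It was measured at 0, 0.0403 and 2.31 CPM in MEF, 2.64, 2.53 and 9.33 in MyoD and 145, 216 and 147 in MyoD F/R/C. The 3 groups did not overlap, although MEF replicate 3 came close to the lower MyoD libraries. The log2 fold change against MEF was 7.77 (SE 1.39, edgeR adjusted p = 0.00342).

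Scn3a, a pore subunit of embryonic neurons, was at 0.0465, 0.0403 and 2.4 CPM in MEF, 0.448, 0.453 and 3.37 in MyoD and 61.4, 65.7 and 38.1 in MyoD F/R/C. MEF replicate 3 and MyoD replicate 3 were the highest of their groups, and all MyoD F/R/C libraries lay far above both. The log2 fold change against MEF was 6.06 (SE 1.42, edgeR adjusted p = 0.0107). Scn2a, another pore subunit of neurons, was already present at 4.37, 4.63 and 3.37 CPM in MEF and 3.13, 3.66 and 4.18 in MyoD, and reached 28.4, 17.8 and 21 in MyoD F/R/C. The change was smaller than that of Scn3a but had the lowest adjusted p among the sodium pores, 2.44 (SE 0.28, edgeR adjusted p = 0.000597).

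The remaining sodium pores were low. Scn8a was called higher at 0.755, 0.684 and 1.63 CPM in MyoD F/R/C against 0.0465, 0.121 and 0.415 in MEF, with a log2 fold change of 2.37 (SE 0.77, edgeR adjusted p = 0.0397). That call was lost in 7 of the 9 fits that each left out 1 library, where the adjusted p reached 0.137. Scn1a, a pore of mature neurons, fell from 0.558, 2.17 and 0.461 CPM in MEF to 0.168, 0.228 and 0.048 in MyoD F/R/C, a log2 fold change of -2.80 (SE 0.86, edgeR adjusted p = 0.0325). Scn1a was highest in replicate 2 of both MEF and MyoD, and without MEF replicate 2 or any 1 of the MyoD F/R/C libraries its call was lost, with adjusted p up to 0.127. Scn7a, a pore-like subunit linked to sodium sensing, did not pass (log2 fold change -1.35, SE 1.09, edgeR adjusted p = 0.361), with 7.91, 0.886 and 0.277 CPM in MEF, where replicate 1 was far above the others.

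The sodium channel beta subunits are small single-pass proteins that set gating and surface level. Scn3b, one of them, was at 3.72, 22.2 and 11.5 CPM in MEF, 24.2, 33.1 and 26.4 in MyoD and 92.1, 96 and 72.7 in MyoD F/R/C, and its log2 fold change against MEF was 2.80 (SE 0.54, edgeR adjusted p = 0.00457). Scn4b, the beta subunit that forms a disulfide bond with the pore, rose to 4.2, 4.51 and 5.81 CPM from 0, 0.241 and 0.738 in MEF (log2 fold change 3.87, SE 1.06, edgeR adjusted p = 0.0203), a call lost without MEF replicate 2 and without MyoD F/R/C replicate 3, where the adjusted p reached 0.0731.

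**Figure D2:**
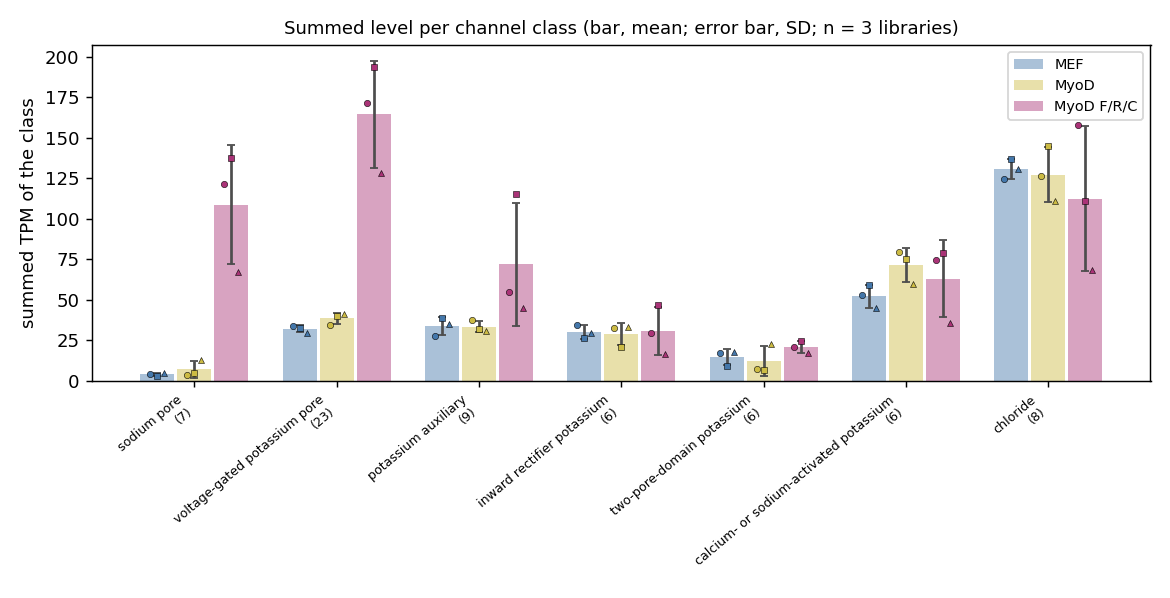
Summed TPM of the members of 7 of the 8 roles (y axis, linear from 0) in MEF, MyoD and MyoD F/R/C; bars are means, error bars the SD over 3 libraries and symbols the libraries, with the number of members under each role. The sodium pores reach 67.2 to 138 TPM in MyoD F/R/C and at most 12.7 elsewhere.

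Summed over members, which compares genes per length, sodium pore transcripts went from 4.02, 2.9 and 4.63 TPM in MEF and 3.43, 4.74 and 12.7 in MyoD to 121, 138 and 67.2 in MyoD F/R/C. The voltage-gated potassium pores went from 33.7, 32.7 and 29.6 TPM in MEF to 171, 194 and 128. In both roles, and for the auxiliary potassium subunits (27.8, 38.8 and 35.3 TPM in MEF, 55, 116 and 45.2 in MyoD F/R/C), the MyoD F/R/C libraries lay above all others. The sums of the inward rectifiers, two-pore-domain channels, calcium- or sodium-activated potassium channels and chloride genes overlapped between the groups. The sum of the eighth role is not reported here. MyoD F/R/C replicate 3 had the lowest sum of its group in the 7 roles named. In MyoD F/R/C, Clcn5 (51 ± 25.1 TPM) and Kcnn3 (47.3 ± 19.5 TPM) overlapped in their ranges, with means below that of Scn4a. In MEF, Clcn4 (39.8 ± 0.371 TPM) and Clcn7 (39 ± 4.49 TPM) overlapped too.

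Among voltage-gated potassium pores, the Kcnc genes encode fast channels that open at high voltage. Kcnc4, known from skeletal muscle, was measured at 0, 0 and 0.554 CPM in MEF, 3.71, 6.31 and 8.71 in MyoD and 64.8, 77.2 and 86 in MyoD F/R/C. The groups formed 3 separate steps, and the log2 fold change against MEF was 8.68 (SE 1.03, edgeR adjusted p = 0.000686). Kcnc1 formed steps as well, with 0.14, 0.161 and 0.738 CPM in MEF, 0.761, 0.831 and 2.6 in MyoD and 29.5, 32.7 and 33.8 in MyoD F/R/C (log2 fold change 6.52, SE 0.77, edgeR adjusted p = 0.000675). Kcnc2 did not pass (log2 fold change -1.63, SE 0.95, edgeR adjusted p = 0.206).

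Kcnq1, a channel of heart and epithelia, was at most 0.138 CPM in any MEF or MyoD library and 4.07, 4.01 and 1.63 CPM in MyoD F/R/C (log2 fold change 5.35, SE 0.81, edgeR adjusted p = 0.00173); its locus overlaps the antisense transcript Kcnq1ot1, and the sources used here do not state whether strand was used in counting, so reads of the pair could be split wrongly. Kcnq5 did not pass (log2 fold change 1.28, SE 0.88, edgeR adjusted p = 0.282), but was called higher when the replicate number was fitted as a block (edgeR adjusted p = 0.0461).

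Kcng2, a silent subunit that forms channels only together with other pore subunits, reached 5.92, 5.29 and 10.8 CPM against 0.186, 0.523 and 0.415 in MEF (log2 fold change 4.27, SE 0.55, edgeR adjusted p = 0.000945). Kcnf1, of the same kind, reached 12.2, 22.3 and 17.8 CPM against 0.0465, 1.29 and 1.75 (log2 fold change 4.07, SE 1.14, edgeR adjusted p = 0.0224), and lost its call in 3 of the 9 leave-one-out fits (without MEF replicate 2, MyoD F/R/C replicate 2 or MyoD F/R/C replicate 3, adjusted p up to 0.0624). Kcns1, also a partner of this kind, went the other way, from 0.558, 1.61 and 0.969 CPM in MEF to 0.294, 0.0912 and 0.192 (log2 fold change -2.41, SE 0.63, edgeR adjusted p = 0.0174), a call lost without MEF replicate 2 and without MyoD F/R/C replicate 2 or 3 (adjusted p up to 0.0678). Kcns3 did not pass (log2 fold change 0.78, SE 0.59, edgeR adjusted p = 0.322).

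Kcna7, a Kv1 channel reported from skeletal muscle and heart, was counted once in all MEF libraries together, at 0, 0 and 0.0461 CPM, and stood at 0.134, 0.0755 and 0.385 in MyoD and 2.1, 4.47 and 3.46 in MyoD F/R/C. The ratio of MyoD F/R/C to MEF was 225-fold (exact 95% counting interval 39.9 to 8915), with an edgeR adjusted p = 0.00105.

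Kcnd1, Kcnd2 and Kcna4, whose currents inactivate quickly, fell. Kcnd1 went from 28.1, 25.9 and 16.1 CPM in MEF and 28.8, 26.6 and 10.5 in MyoD to 6, 4.65 and 3.22 in MyoD F/R/C, without overlap (log2 fold change -2.33, SE 0.43, edgeR adjusted p = 0.00401). Kcnd2 fell from 0.605, 3.06 and 1.2 to 0.042, 0.182 and 0.144 CPM (log2 fold change -3.68, SE 0.90, edgeR adjusted p = 0.0125) and Kcna4 from 0.791, 1.01 and 1.2 to 0.252, 0.137 and 0 CPM (log2 fold change -2.87, SE 0.76, edgeR adjusted p = 0.0177); the Kcna4 call was lost without MyoD F/R/C replicate 2 at an adjusted p of 0.0625. The third Kcnd gene, Kcnd3, did not pass (log2 fold change -0.91, SE 1.10, edgeR adjusted p = 0.545). Kcna5 was at 0 counts in every MyoD F/R/C library and at 0, 0.121 and 2.31 CPM in MEF, where replicate 3 held 50 counts and the other 2 libraries 0 and 3, at or under the floor. It was not called (edgeR adjusted p = 0.0737) except with the replicate block (edgeR adjusted p = 0.0423).

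Kcnip2, a calcium-binding partner of the Kcnd channels, went the opposite way to them: it was at 0.0465, 0.362 and 0.784 CPM in MEF, 0.0448, 0.302 and 0.673 in MyoD and 26.4, 30.1 and 19.8 in MyoD F/R/C, with a log2 fold change of 5.98 (SE 0.93, edgeR adjusted p = 0.00198). Kcnip4, another member of that partner family, fell from 0.558, 7.89 and 0.507 CPM in MEF to 0.21, 0.0912 and 0 (log2 fold change -4.79, SE 1.46, edgeR adjusted p = 0.0306). MEF replicate 2 alone was above 1 CPM in MEF, and without it, or without any 1 MyoD F/R/C library, the call was lost (adjusted p up to 0.147). The other 7 auxiliary genes did not pass. Kcnab3, a beta subunit of Kv1 channels, was at 1.44, 1.13 and 1.25 CPM in MEF and 2.1, 2.28 and 1.73 in MyoD F/R/C (log2 fold change 0.68, SE 0.34, edgeR adjusted p = 0.145). Kcne4, which dampens Kcnq1 currents, differed widely between MyoD F/R/C libraries, at 21.9, 117 and 44.3 CPM (log2 fold change 1.88, SE 0.96, edgeR adjusted p = 0.155), and was called with the replicate block (edgeR adjusted p = 0.0226), as was Kcne1l (log2 fold change 1.23, SE 0.72, edgeR adjusted p = 0.21, edgeR adjusted p with the block = 0.0407).

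Of the 10 genes that fell, 6 were highest in replicate 2 within MEF, and 4 in both MEF and MyoD. Within MyoD, 6 of the 10 were highest in replicate 1 and 4 in replicate 2. The summed CPM of 10 neuron markers was highest in replicate 2 of both MEF and MyoD. It was 141, 450.5 and 66.3 in MEF, 256, 465 and 74.6 in MyoD and 67.3, 57.1 and 42.6 in MyoD F/R/C. Most of it was Stmn2 in replicates 1 and 2 of MEF and MyoD. Of the 9 neuron markers tested, 1 was called higher and 2 lower against MEF. Rbfox3 was at 0 in all 9 libraries. The part of these markers in the falls of Kcnip4, Kcnd2, Scn1a and Kcns1 was not tested. Kcnip4 also overlaps 5730480H06Rik on the other strand. Of the 27 genes that rose, 21 were highest in replicate 3 within MEF and 23 in replicate 3 within MyoD. Among the 31 members not called, 16 and 14 were. The share over all genes was not computed. Those replicate 3 libraries held the most skeletal muscle marker RNA of their groups, whose part in these levels was not tested.

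**Figure D3:**
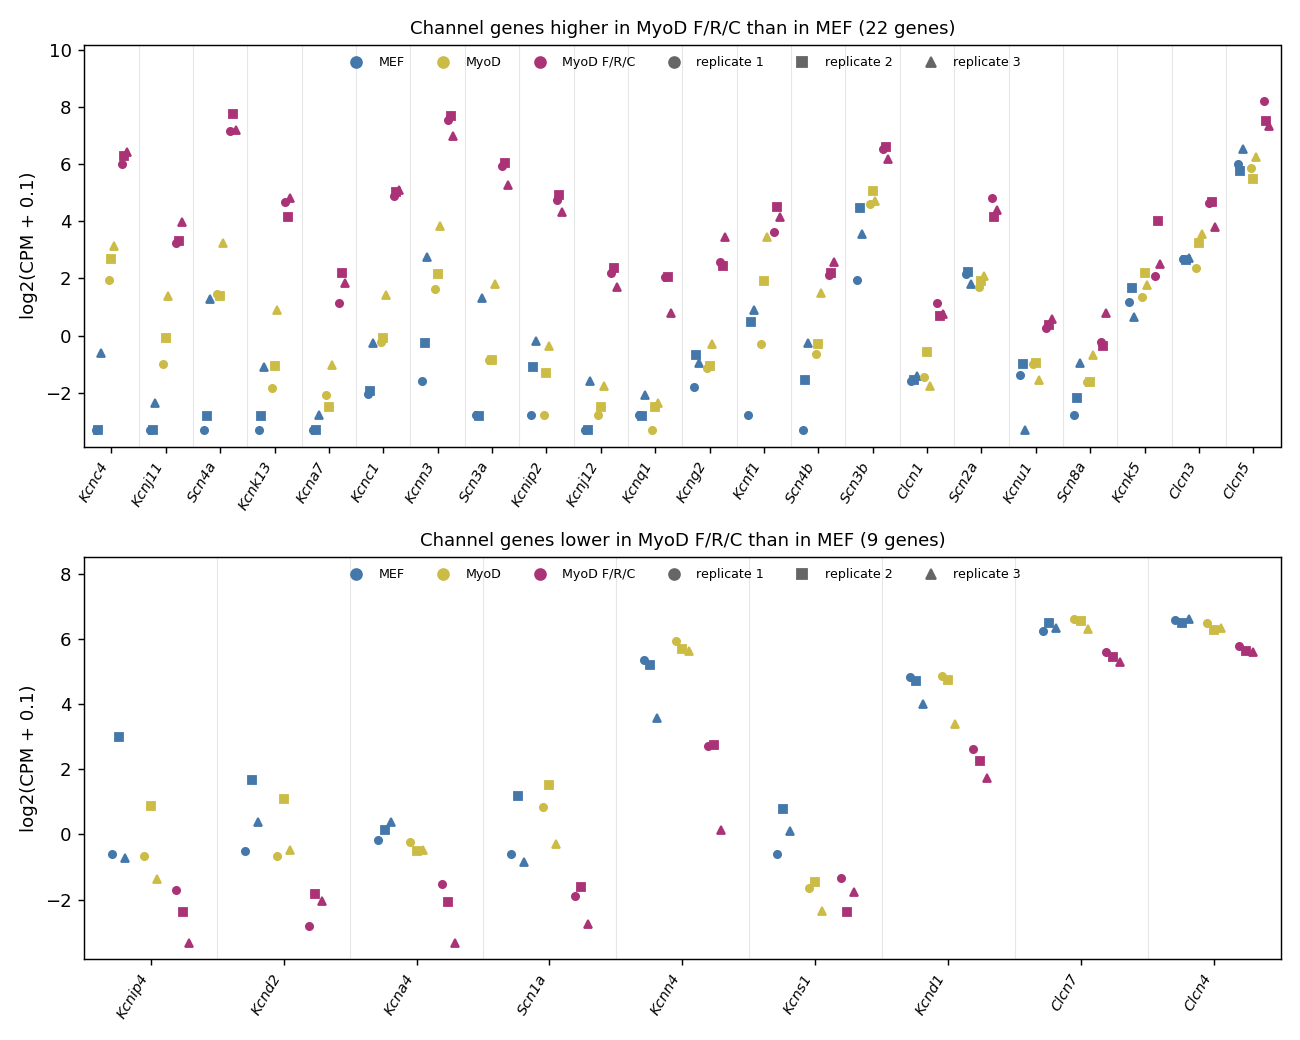
Level of each called channel gene in every library, as log2(CPM + 0.1) (y axis), for 22 genes higher in MyoD F/R/C than in MEF (top, ordered by fold change) and 9 lower (bottom). Colours are groups and symbols replicates; among the rises the MEF replicate 3 triangle often sits above the other MEF libraries, and Kcnip4 has 1 MEF library, replicate 2, far above the other 2.

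The inward rectifiers, which help to hold the resting potential, gave 2 calls among 6 genes. Kcnj11, the pore of the ATP-sensitive channel of muscle and pancreas, had 2 counts in all in MEF (0, 0 and 0.0923 CPM), and was at 0.403, 0.831 and 2.5 CPM in MyoD and 9.44, 9.94 and 15.6 in MyoD F/R/C. The ratio to MEF was 392-fold (exact 95% counting interval 108 to 3244) with an edgeR adjusted p = 0.000976. Kcnj8, the other pore of ATP-sensitive channels, was measured at 0.0465, 2.05 and 4.47 CPM in MEF and 9.02, 8.25 and 6.91 in MyoD F/R/C and did not pass (log2 fold change 1.88, SE 1.07, edgeR adjusted p = 0.196). Kcnj12, a strong inward rectifier, stood at 0, 0 and 0.231 CPM in MEF, 0.0448, 0.0755 and 0.192 in MyoD and 4.45, 5.01 and 3.17 in MyoD F/R/C (log2 fold change 5.71, SE 1.06, edgeR adjusted p = 0.00399); it is given as uncertain because its near-identical relative Kcnj18 was not analysed here and could share its reads. Kcnj2, a strong rectifier of muscle, was at 39, 39.7 and 21.7 CPM in MyoD F/R/C and 19.1, 33.6 and 30.2 in MEF, with overlapping groups (log2 fold change 0.28, SE 0.43, edgeR adjusted p = 0.643). Kcnj15 was uneven, at 5.37, 52.4 and 1.49 CPM in the 3 MyoD F/R/C libraries (log2 fold change -0.61, SE 1.11, edgeR adjusted p = 0.693).

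Among two-pore-domain channels, which leak potassium at rest, Kcnk13 showed the clearest rise, with 0, 0.0403 and 0.369 CPM in MEF, 0.179, 0.378 and 1.78 in MyoD and 25.3, 17.5 and 28.1 in MyoD F/R/C. Its log2 fold change was 7.40 (SE 1.19, edgeR adjusted p = 0.00225). Kcnk5 was called higher (log2 fold change 1.94, SE 0.57, edgeR adjusted p = 0.0257), highest in MyoD F/R/C replicate 2 (4.16, 16.1 and 5.52 CPM in replicates 1 to 3), and lost the call without MEF replicate 1, MEF replicate 3 or MyoD F/R/C replicate 2 (adjusted p up to 0.102) and without replicate 3 of MEF and of MyoD together. Kcnk2, Kcnk3, Kcnk6 and Kcnk10 did not pass, with adjusted p from 0.0691 to 0.843.

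The calcium-activated channels changed in opposite directions. Kcnn3, a small-conductance channel found in immature and denervated muscle, was at 0.233, 0.725 and 6.64 CPM in MEF, 3, 4.3 and 14.1 in MyoD and 188, 208 and 126 in MyoD F/R/C. All MyoD F/R/C libraries lay at least 8 times above the others, and the log2 fold change was 6.11 (SE 1.19, edgeR adjusted p = 0.005). Kcnn4, an intermediate-conductance channel of fibroblasts and blood cells, was at 40.9, 36.4 and 11.9 CPM in MEF, 61.2, 51.4 and 49.4 in MyoD and 6.46, 6.66 and 1.01 in MyoD F/R/C (log2 fold change -2.65, SE 0.67, edgeR adjusted p = 0.0148). MyoD F/R/C replicate 3 was the lowest of its group. Kcnma1, the large-conductance channel, did not pass as a gene (log2 fold change -0.53, SE 0.92, edgeR adjusted p = 0.681), and its transcripts are described below. Kcnu1, a relative known from sperm, was called at 1.09, 1.19 and 1.39 CPM against 0.279, 0.403 and 0 (log2 fold change 2.38, SE 0.82, edgeR adjusted p = 0.0475), and lost the call in 8 of the 9 leave-one-out fits (adjusted p up to 0.119).

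Chloride genes act at the plasma membrane or inside the cell. Clcn1, the muscle chloride channel, had 33 to 50 counts in each MyoD F/R/C library and 4 to 15 in each of the others. In CPM it was at 0.233, 0.241 and 0.277 CPM in MEF, 0.269, 0.567 and 0.192 in MyoD and 2.1, 1.5 and 1.58 in MyoD F/R/C, and the log2 fold change was 2.76 (SE 0.50, edgeR adjusted p = 0.00355). Its locus overlaps Fam131b on the other strand.

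The intracellular exchangers were detected in every library. Clcn5, which acidifies endosomes, was at 64, 54.8 and 91.4 CPM in MEF, 57.7, 44.4 and 76.4 in MyoD and 296, 184 and 162 in MyoD F/R/C (log2 fold change 1.61, SE 0.32, edgeR adjusted p = 0.00513). Clcn3, of the same branch, rose to 24.7, 25.3 and 13.8 CPM from 6.33, 6.12 and 6.5 (log2 fold change 1.75, SE 0.36, edgeR adjusted p = 0.00613). Clcn4 and Clcn7, the first a partner of Clcn3 and the second the lysosomal exchanger, fell less than the other genes called lower, Clcn4 from 95.8, 90.2 and 98.4 to 55.3, 49.8 and 48 CPM (log2 fold change -0.89, SE 0.14, edgeR adjusted p = 0.00228) and Clcn7 from 75.6, 88.7 and 81.1 to 48.1, 43.7 and 39 CPM (log2 fold change -0.91, SE 0.16, edgeR adjusted p = 0.00321). Clcn2 and Clcn6 did not pass (log2 fold change -0.45, SE 0.34, edgeR adjusted p = 0.323, and log2 fold change -0.18, SE 0.24, edgeR adjusted p = 0.585).

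Promoter windows of 250 bases upstream of the start, from the RefSeq promoter table for GRCm38.p6, were found for 52 of the 68 members. They were searched on both strands for CANNTG, the E-box core that MyoD-family factors bind, for CAGCTG, one form of it contained in CANNTG, and for a MEF2-type motif. CANNTG occurred in 75.0% of 16 members that rose, 87.5% of 8 that fell and 69.3% of 27025 genes. CAGCTG occurred in 6.25% of those that rose, 12.5% of those that fell, 35.7% of 28 members not called and 14.7% of all genes, and the MEF2-type motif in 6.25% and 3.7%. The windows of Clcn1 (chr6:42286435-42286684, plus strand), the 1 member of the 52 with a MEF2-type match, and of Kcnn3 (chr3:89519914-89520163, plus strand), with no match to any motif and a rise to a mean of 174 CPM, are shown 5′ to 3′ with the matches in capitals. Neither holds an exon of its gene.
Clcn1: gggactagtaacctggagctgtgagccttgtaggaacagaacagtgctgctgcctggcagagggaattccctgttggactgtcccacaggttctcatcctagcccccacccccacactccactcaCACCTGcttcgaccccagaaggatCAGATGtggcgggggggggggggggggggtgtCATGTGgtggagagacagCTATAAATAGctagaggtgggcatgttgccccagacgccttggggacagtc
Kcnn3: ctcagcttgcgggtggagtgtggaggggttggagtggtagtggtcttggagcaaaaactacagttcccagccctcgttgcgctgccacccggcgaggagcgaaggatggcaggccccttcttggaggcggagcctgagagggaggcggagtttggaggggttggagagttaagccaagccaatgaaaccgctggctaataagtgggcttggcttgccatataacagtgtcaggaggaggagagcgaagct

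MyoD alone gave no call against MEF: 0 of 68 channel genes were higher and 0 lower (edgeR adjusted p), as for all genes tested (0% called). At an unadjusted p under 0.05, 9 were higher and 2 lower, beside 3.35% and 1.31% of all genes. In 10 genes every MyoD library lay above every MEF library and in 4 below, beside 4.4% and 3.11% of all genes. With DESeq2, 4 genes, Kcnc4 and Kcnj11 among them, were called higher (1.03% of all genes) and Scn7a lower (0.0707%), and the replicate block with edgeR gave 0 in each direction (0.0827% and 0% of all genes). Without MEF replicate 3, edgeR called 3 higher, Scn4a and Kcnc4 among them (0.97% of all genes) and none lower (0.0184%), and without replicate 3 of both groups, an alternative chosen after seeing the data, it called 7 higher, with Kcnn3, Kcnc1 and Kcnj11 among those added (1.22% of all genes), and none lower (0.00617%).

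None of these changes passed the adjusted threshold in the edgeR fit of all 9 libraries. Kcnc4 had a log2 fold change of 5.08 (SE 0.94, edgeR adjusted p = 0.205), while Kcnj11 had a ratio of 40.5-fold (exact 95% counting interval 10.9 to 340.4), edgeR adjusted p = 0.241. In 8 members, among them Kcna7, Kcnc1, Kcnc4, Kcnj11, Scn3b and Scn4a, every MyoD library lay above every MEF library and below every MyoD F/R/C library, beside 2.62% of all genes. In 2, Clcn4 and Kcna4, the order was reversed, beside 0.948%. Kcnn4 was above MEF in every MyoD library (log2 fold change 0.86, SE 0.63, edgeR adjusted p = 1) and below MEF in every MyoD F/R/C library.

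Adding F/R/C to MyoD gave 22 channel genes higher than in MyoD and 8 lower, and 38 did not pass, where 17.8% of all genes were called higher and 16.1% lower. Of the 22, 8 were members that passed the count rule only with the MyoD F/R/C libraries, and the other 56 members gave 14 higher and 8 lower. This comparison shares its MyoD F/R/C libraries with the one against MEF. The median log2 fold change was 1.29 over the channel genes and -0.02 over all genes. Of the members, 21 were called higher and 8 lower in both comparisons, 30 in neither and none in opposite directions. Scn2a and Kcng2 had the lowest adjusted p among the rises, with log2 fold changes of 2.61 (SE 0.28, edgeR adjusted p = 0.000722) and 3.91 (SE 0.54, edgeR adjusted p = 0.00171), and neither was called with MyoD alone (log2 fold change -0.17, SE 0.27, edgeR adjusted p = 1, and log2 fold change 0.35, SE 0.53, edgeR adjusted p = 1). Genes that formed steps have a smaller change here than against MEF by the way they were picked. The change was 5.13 (SE 1.21, edgeR adjusted p = 0.0127) for Scn4a and 3.61 (SE 0.77, edgeR adjusted p = 0.0089) for Kcnc4.

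Single libraries decided several of these calls. Without MyoD replicate 2, Kcnn3 and Scn4a lost their calls (adjusted p 0.0569 and 0.053). In all, 8 of the 22 higher and 3 of the 8 lower calls were lost in at least 1 leave-one-out fit, against 6 of 27 and 4 of 10 in the comparison with MEF. Kcnip3, a calcium sensor related to Kcnip2, was called in this comparison alone (log2 fold change 1.78, SE 0.59, edgeR adjusted p = 0.0459), and lost the call in 7 of the 9 fits.

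Transcript-level estimates were tested for 127 transcripts of 67 members, 27 of which had at least 2. Against MEF, 28 were higher and 5 lower in MyoD F/R/C, beside 6.71% and 4.77% of the 44724 transcripts tested. Against MyoD, 13 were higher and 4 lower (4.09% and 3.79% of all), and MyoD alone gave none against MEF in either direction (0.0112% and 0% of all). Reads shared by similar transcripts are divided by estimation, and the transcripts named here were chosen after their values were seen. Kcnh2-201, a full-length form of the hERG channel gene, was higher at 7.59, 5.26 and 3.27 TPM against 1.26, 1.29 and 1.16 in MEF (edgeR adjusted p = 0.0198), while the gene as a whole did not pass (log2 fold change 0.62, SE 0.53, edgeR adjusted p = 0.387); that transcript call was lost in 5 of the 9 leave-one-out fits (up to an adjusted p of 0.0824).

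Kcnma1 was the 1 member with transcripts called in opposite directions. Kcnma1-221 stood at 0.788, 7.08 and 19 TPM in MEF and was listed at 0 in all 3 MyoD F/R/C libraries (edgeR adjusted p = 0.031), and Kcnma1-211 was at 0 in MEF and 0.502, 1.05 and 0.252 TPM in MyoD F/R/C (0.0334). Both calls were lost in most of the 9 leave-one-out fits, Kcnma1-221 in 7 at an adjusted p up to 0.078 and Kcnma1-211 in 6 up to 0.128, and Kcnma1-211 was lost with the replicate block (edgeR adjusted p = 0.142). Kcnma1-235, not called (0.286), was at 0, 0 and 0.588 TPM in MEF and 3.71, 2.69 and 1.6 in MyoD F/R/C, where it made up 53.3% of the gene's TPM. It differs from Kcnma1-221 in coding sequence by the exon of 87 bases at chr14:23390921-23391007 (minus strand), present in Kcnma1-235.
Kcnma1-235: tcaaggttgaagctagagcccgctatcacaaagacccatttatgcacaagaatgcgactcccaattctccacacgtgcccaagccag

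**Figure D4:**
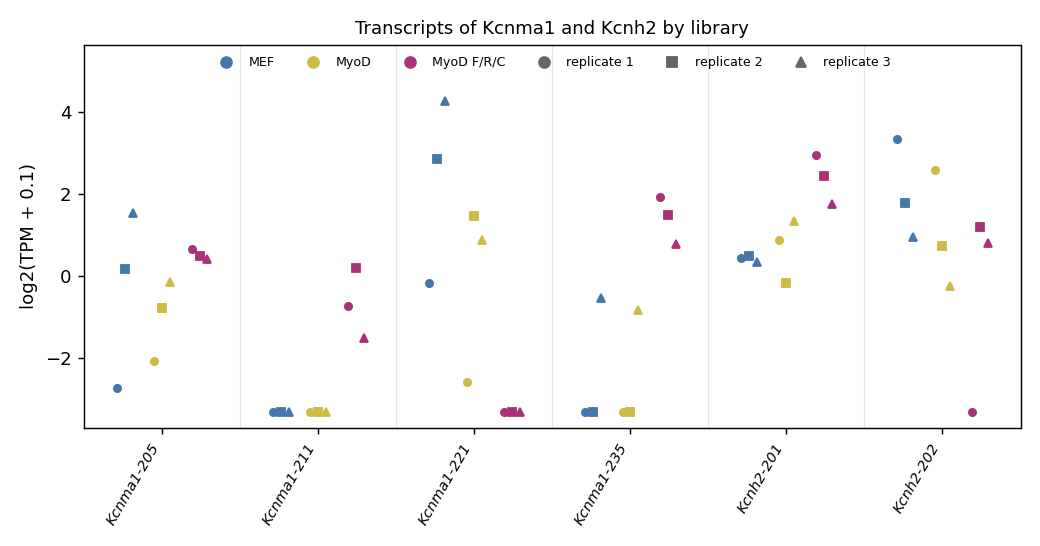
Level of transcripts of Kcnma1 and Kcnh2 in every library as log2(TPM + 0.1) (y axis), with groups as colours and replicates as symbols. Kcnma1-221 sits at the floor in MyoD F/R/C, and Kcnma1-211 sits there in MEF and MyoD.

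Genes that work with these channels were taken from a list of 82, of which 66 were tested, and those named were chosen after their values were seen. Against MEF, 19 were higher and 13 lower in MyoD F/R/C, against MyoD 17 and 13, and MyoD alone gave none. The shares of all genes called are those given above for each comparison. The sodium-potassium pump restores the gradients that the channels use. Of its beta subunits, Atp1b2, Atp1b3 and Atp1b4 rose (log2 fold changes 3.11, 0.97 and 7.75) and Atp1b1 fell (log2 fold change -2.12, SE 0.46, edgeR adjusted p = 0.00793).

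The sulfonylurea receptors that surround the Kcnj11 pore rose beside it. Abcc9, the muscle form, went from 0.651, 0.564 and 3.69 CPM in MEF to 78.5, 63 and 51.3 in MyoD F/R/C (log2 fold change 5.30, SE 0.85, edgeR adjusted p = 0.00217), and Abcc8 from 1 count in MEF to 1.8, 3.97 and 4.61 CPM, a ratio of 231-fold (exact 95% counting interval 41 to 9157), edgeR adjusted p = 0.00148. Among genes listed as anchors and regulators of sodium channels, Ank1, Cav3 and Fgf11 rose and Fgf12 and Fgf14 fell. The log2 fold change was 6.39 for Ank1 (SE 0.81, edgeR adjusted p = 0.000875) and -4.58 for Fgf14 (SE 1.19, edgeR adjusted p = 0.0164). Ank3, another ankyrin of the list, overlapped, at 75.1, 93.55 and 126 CPM in MEF and 94.8, 107 and 50.5 in MyoD F/R/C. Whether Ank1 acts on sodium channels in these cells was not tested. Of 20 other chloride channel genes tested, 3 (Ano5, Best3 and Clic3) rose and 8 (Ano1, Ano3, Ano6, Ano7, Ano8, Lrrc8a, Lrrc8c and Clic1) fell. Ano5, a muscle membrane protein, reached 53.5, 38.4 and 33.8 CPM from 0.884, 0.282 and 1.06 in MEF (log2 fold change 5.82, SE 0.56, edgeR adjusted p = 0.00036), and the calcium-activated channel Ano1 was at 3.69, 1.05 and 1.44 CPM against 17.8, 16.6 and 6.55 in MEF and 48.3, 35.1 and 80.1 in MyoD (log2 fold change -2.72, SE 0.58, edgeR adjusted p = 0.00737).

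**Figure D5:**
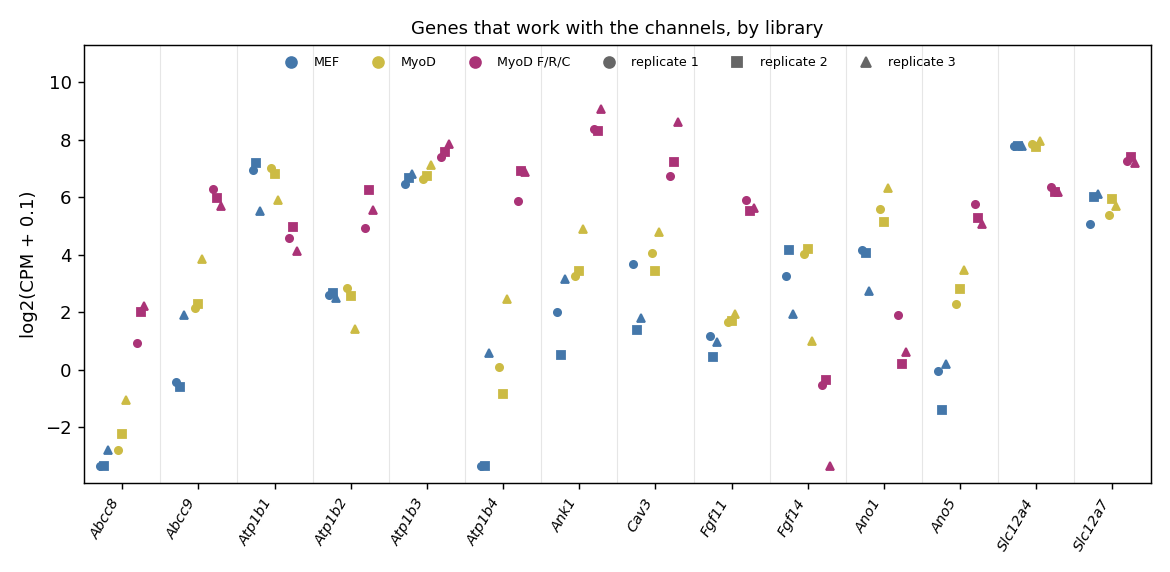
Level of 14 genes that work with the channels, in every library, as log2(CPM + 0.1) (y axis), with groups as colours and replicates as symbols. The 14 were chosen from the list of 82 after their values were seen; Abcc9 and Ank1 lie above all MEF and MyoD libraries in MyoD F/R/C, and Ano1 lies below them.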

How the data were processed

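PolyA RNA was sequenced from 9 libraries, 3 in each of 3 groups. Per the submitters' processing notes, the authors used bcl2fastq 2.19, Trimmomatic 0.36, kallisto 0.44, edgeR 3.28 and the build GRCm38.p6. Neither annotation release nor strand use is given in the sources used here. Deposited files hold, per transcript, the authors' estimated counts and TPM values. Estimated counts were summed to genes, rounded to whole numbers and tested with edgeR 4.0.16 (R 4.3.3, limma 3.58.1; filterByExpr with a minimum count of 10, TMM, quasi-likelihood test, 1 fit of all libraries, Benjamini-Hochberg over 15714 genes). SEs were taken as the size of the log2 fold change over √F. CPM uses effective library sizes and is compared within genes, TPM between genes. DESeq2 1.42.0, other scalings and filters, a replicate block and leaving out libraries were tried. The fit was tested on counts simulated with a fixed spread, with changes only in well-counted genes. That does not cover genes with few counts or a wide spread between libraries. The members and lists were chosen with earlier results of these data known. Named genes are textbook muscle channels, the called genes with the largest non-overlapping changes, the most abundant members, and in each role the most abundant gene and those with the smallest p; some are not reported here, and others were chosen after their values were seen. Same-numbered libraries deviated together between MEF and MyoD (correlations 0.632 to 0.729), so the numbers of these groups were taken as pairs from the data. With MyoD F/R/C the same-numbered correlations were positive but weaker, 0.101 to 0.151 for MEF and 0.0837 to 0.164 for MyoD. Block values that change a call against MEF are given beside the result, and those against MyoD at the end.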

Additional observations from a re-analysis of the deposited data

How the results depend on the processing

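More channel genes were called higher than lower in MyoD F/R/C under every alternative run, against MEF and against MyoD. These counts cover all 68 members, also those that needed the MyoD F/R/C libraries to pass the count rule. Such members tend to be higher there by admission, so the excess is a description. The other 56 were not counted apart under the alternatives. In the main fit they gave 17 higher and 10 lower against MEF, and 14 and 8 against MyoD. Over single genes and transcripts, 1202 values under an alternative kept their side of the threshold, 90 lost a call, 13 gained one and 0 reversed. Leaving out 1 library gave 22 to 26 higher and 7 to 11 lower in MyoD F/R/C against MEF, 15 to 23 higher and 5 to 9 lower against MyoD (5 without MyoD replicate 2), and 0 to 3 higher and 0 lower for MyoD against MEF. The same for partner genes gave 16 to 22 and 10 to 13, 12 to 19 and 9 to 13, and 0 to 3 and 0. For transcripts it gave 11 to 31 and 1 to 5, 1 to 18 and 1 to 4, and 0 to 1 and 0. For MyoD against MEF, DESeq2 called 4 channel genes higher and 1 lower, 5 partner genes higher and 4 transcripts higher, no filter beyond 1 count called 1 partner gene higher, and leaving out replicate 3 of MEF and MyoD called 7 channel and 4 partner genes higher. For transcripts DESeq2 called 14 lower against MEF, and 33 higher and 14 lower against MyoD. The share of all transcripts called by DESeq2 is not given here, nor are most shares for the leave-one-out runs. Such counts show how calls moved between runs and are not read as results about the channel genes. The cause of these differences between runs was not tested. The transcript alternatives and the one without replicate 3 of both groups were chosen after seeing the data. Scaling by total counts moved the median of all genes to -0.13 against MEF and -0.20 against MyoD.

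With the replicate block, 30 channel genes were higher and 11 lower against MEF, 31 and 8 against MyoD, and 0 and 0 for MyoD against MEF. Of all genes, 22.5% were higher and 21.3% lower against MEF with the block. The share against MyoD with the block is not given here, so 31 and 8 are not read as a result about the channel genes. Against MyoD, 10 genes were called only with the block (edgeR adjusted p with the block from 0.0152 to 0.0444). They were Kcna5, Kcne1l, Kcnf1, Kcnh2, Kcnk5, Kcnmb4, Kcnq5, Scn4b, Scn7a and Scn8a. Same-numbered MyoD and MyoD F/R/C libraries were only weakly correlated (0.0837, 0.119 and 0.164), as were those of MEF and MyoD F/R/C (0.101 to 0.151). Kcna4 lost its call against MyoD under the block (edgeR adjusted p = 0.0538). Precision at low counts is limited by depth, with a floor of 3 counts per library worth 0.113 to 0.144 CPM.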
